A study of Mus musculus with 12 samples.

Results

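Milk protein genes were followed in mouse mammary epithelium at 5 weeks of age. The members were the 7 genes Csn1s1, Csn1s2a, Csn3, Lalba, Btn1a1, Wfdc18 and Muc15, found by their symbol in the platform annotation. They are 7 of 12913 named genes and held 8 of 17589 probes, since Csn3 had 2. The tested tissues were mature ducts on 6 arrays and terminal end buds, the bulbous growing tips of the ductal tree, on another 6. Each array set Cy5 RNA of the epithelium against Cy3 RNA of distal stroma, the part of the mammary fat pad that holds no epithelium. All tissue was microdissected from mice with a B-actin-GFP reporter, named for the beta-actin gene, which made the gland visible. The labels give neither the strain nor the reproductive state, and do not say whether arrays came from separate animals.

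Every value is the log ratio of an epithelial structure over stroma on 1 array, treated as log2. No source used here states the logarithm's base. If it were natural, folds and sizes would differ, while signs, ranks and p-values would stand. A ratio near 0 means equal signal in epithelium and stroma and does not show whether a gene is expressed. Ratios of different genes are not levels and cannot rank the genes by abundance. In these bulk samples, fewer cells of a type and less RNA per cell cannot be told apart.

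Caseins are the main proteins of milk. The alpha-s caseins bind calcium phosphate, and kappa-casein covers the surface of the micelle and keeps it in solution. Milk genes are known above all from the secretory alveoli of pregnancy and lactation. There prolactin acts through its receptor, the kinase Jak2 and the transcription factor Stat5, together with glucocorticoid receptor and Elf5. Alpha-lactalbumin belongs to the whey, and butyrophilin and mucin 15 sit in the membrane around the milk fat globule.

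Correlations over all probes were 0.6 to 0.821 among duct arrays and 0.653 to 0.877 among terminal end bud arrays, against 0.431 to 0.707 between a duct and a terminal end bud array. All 6 luminal and all 5 basal epithelial markers were higher than stroma in both structures. The mean ratio of the luminal markers ran over arrays between 3.52 and 4.16 in ducts and between 4.14 and 4.95 in terminal end buds. The mean of 4 white fat markers lay between -0.59 and -0.35 in ducts and between -1.49 and -0.98 in terminal end buds. For 4 endothelial markers it was -0.69 to -0.25 in ducts and -1.77 to -1.24 in terminal end buds. For 4 fibroblast markers it was 0.29 to 1.56 in ducts and 0.01 to 0.68 in terminal end buds.

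Against stroma, all 8 probes were higher in ducts (limma, adjusted p under the threshold of 0.05), where 16% of all probes were called higher and 12.2% lower. In ducts 28.2% of all probes were called in either direction. In terminal end buds 7 of 8 were higher and 0 lower, where 23.2% of all probes were higher, 20.4% lower and 43.6% called in all. The median over the 8 probes was 4.03 in ducts and 1.68 in terminal end buds, and the median over all probes was 0.015 in each. Between the structures, 7 of the 8 probes were higher in ducts, where 10.4% of all probes were, and 1, for Wfdc18, was lower, where 8.32% of all probes were (18.7% in all). The median difference, ducts minus terminal end buds, was 1.99 over the 8 probes and 0 over all probes. Members were chosen with results of these arrays known, so these counts describe the genes. Distal stroma was hybridised only as the second channel of each array, so no array measured it on its own and its variation there is part of each ratio. If the arrays shared 1 stroma sample, the spread between stroma samples is left out. No labelled array had its dyes swapped, so a dye bias of a single probe would remain in its ratio. The spread behind each p-value is that between arrays and may be technical.

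**Figure D1:**
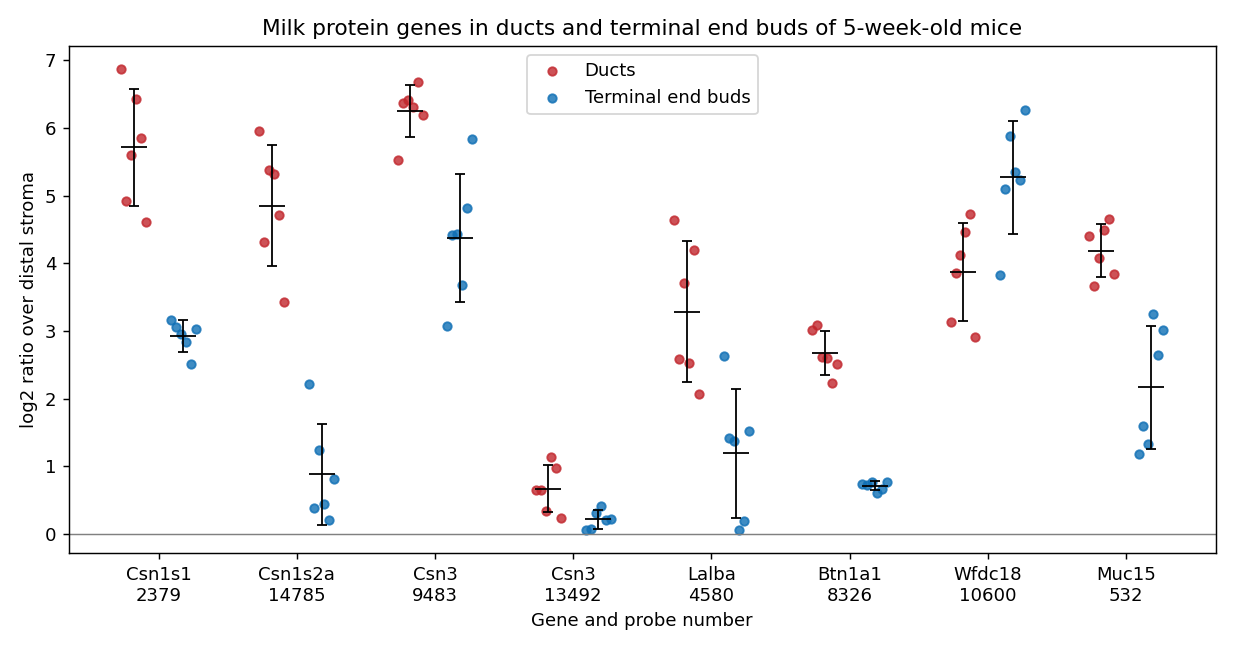
Log2 ratio over distal stroma (vertical axis) of each milk protein probe (horizontal axis) on the 6 duct arrays (red, left) and the 6 terminal end bud arrays (blue, right), with the mean and SD in black. All points lie above 0, ducts are clear of terminal end buds for Csn1s1, Csn1s2a, Btn1a1 and Muc15, and Wfdc18 runs the other way, with 5 of 6 terminal end bud arrays above every duct array.

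Csn1s1 encodes alpha-s1 casein. On the duct arrays its ratio was 4.61 at the lowest, 5.72 at the median and 6.87 at the highest, against 2.51, 2.99 and 3.16 on the terminal end bud arrays. Every duct array lay above every terminal end bud array, and the spread was wide in ducts and narrow in buds, with an SD of 0.86 in ducts and 0.23 in terminal end buds (n = 6 each). The mean was 5.71 in ducts (52.4-fold over stroma) and 2.93 in terminal end buds (7.6-fold). The difference was 2.78 (95% interval 2.11 to 3.46, limma adjusted p = 5.06e-05), a 6.89-fold higher ratio in ducts.

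Csn1s2a encodes an alpha-s2 type casein of the same cluster on chromosome 5. Its ratio in ducts was 3.43, 5.01 and 5.95 at the lowest, median and highest array, against 0.21, 0.63 and 2.21 in terminal end buds. The groups did not overlap. Terminal end bud replicate 1 stood at 2.21 and replicate 3 at 1.24, while the other terminal end bud arrays were under 1. Ducts minus terminal end buds came to 3.96 (95% interval 3.09 to 4.84, limma adjusted p = 2.33e-05), or 15.6-fold, which ranked 1 among all 17589 probes. Over stroma the mean was 4.85 in ducts, 28.8-fold, and 0.89 in terminal end buds (adjusted p = 0.0221). That call in terminal end buds was lost without replicate 1 (0.62, adjusted p = 0.091) and without replicate 3 (0.82, adjusted p = 0.0582). Over 24 alternatives its adjusted p ran between 0.00289 and 0.662.

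Upstream sequence is shown for the members that a RefSeq promoter table of build GRCm38.p6 held, 4 of the 7 genes. Each line gives the 250 bases before the annotated start, 5′ to 3′ on the gene's strand. Capitals mark TTCNNNGAA, the letters to which Stat5 is known to bind, or TATAAA, the TATA box, both searched on both strands.
Csn1s1, chr5:87665958-87666207, plus strand: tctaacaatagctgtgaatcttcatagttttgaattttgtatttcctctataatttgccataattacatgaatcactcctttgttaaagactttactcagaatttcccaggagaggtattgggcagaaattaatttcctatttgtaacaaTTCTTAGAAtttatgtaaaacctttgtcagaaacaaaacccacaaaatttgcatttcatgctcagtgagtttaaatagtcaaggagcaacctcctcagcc
Csn1s2a, chr5:87774200-87774449, plus strand: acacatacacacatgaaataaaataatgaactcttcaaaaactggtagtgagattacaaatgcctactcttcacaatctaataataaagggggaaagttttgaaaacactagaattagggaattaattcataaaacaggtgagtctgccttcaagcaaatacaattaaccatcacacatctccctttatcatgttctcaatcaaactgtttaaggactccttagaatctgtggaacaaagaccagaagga
Lalba, chr15:98482684-98482933, minus strand: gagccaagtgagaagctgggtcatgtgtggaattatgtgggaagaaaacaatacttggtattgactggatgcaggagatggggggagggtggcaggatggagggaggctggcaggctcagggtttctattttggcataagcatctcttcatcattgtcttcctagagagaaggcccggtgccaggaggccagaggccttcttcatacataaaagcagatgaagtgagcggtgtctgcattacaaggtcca
Wfdc18, chr11:83708754-83709003, plus strand: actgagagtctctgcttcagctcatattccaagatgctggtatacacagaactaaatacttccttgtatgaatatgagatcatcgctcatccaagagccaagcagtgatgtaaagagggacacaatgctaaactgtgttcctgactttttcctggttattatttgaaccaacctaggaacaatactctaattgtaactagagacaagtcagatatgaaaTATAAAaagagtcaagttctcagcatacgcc
Csn1s2a site, chr5:87774460-87774488, plus strand: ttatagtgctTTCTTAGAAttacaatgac

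The letters TTCTTAGAA occurred upstream of Csn1s1, starting at position -100 from its start. The same letters occurred at Csn1s2a, but 21 bases after the annotated start, within the short last line above. In windows of 300 bases, TTCNNNGAA was found in 8.3% of 32851 promoters and the exact letters TTCTTAGAA in 0.435%. TATAAA was found in 13.6% and, among the members, in the window of Wfdc18, starting at position -31. The Lalba window held neither motif. A match is a description of letters, and these arrays did not measure binding.

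Csn3 encodes kappa-casein, and its 2 probes gave very different ratios. Probe 9483 read 5.53, 6.34 and 6.67 at the lowest, median and highest duct array, against 3.08, 4.43 and 5.83 in terminal end buds. The groups touched, because terminal end bud replicate 6, at 5.83, was above the lowest duct array. Its mean over stroma was 6.25 in ducts, which ranked 1 among all probes, and 4.38 in terminal end buds, which ranked 8. The difference was 1.87 (95% interval 1.10 to 2.65, limma adjusted p = 0.00216), or 3.67-fold.

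Probe 13492 of the same gene read 0.24, 0.66 and 1.14 in ducts, against 0.07, 0.21 and 0.42 in terminal end buds. Both probes thus had their higher mean in ducts, but the mean of probe 13492 was 0.67 in ducts and 0.22 in terminal end buds. Its difference of 0.45 (95% interval 0.15 to 0.75, limma adjusted p = 0.0382) was smaller than that of probe 9483 by 1.42 (two-sided exact permutation p = 0.00866). The call for probe 13492 was lost in 8 of 12 fits that each left out 1 array: without terminal end bud replicates 1, 2, 5 or 6, and without duct replicates 1, 2, 4 or 5. Without an array its difference lay between 0.36 and 0.54, and the adjusted p over all alternatives was 0.0137 to 1. In terminal end buds over stroma it did not pass (adjusted p = 0.0947). The probe sequences were not used here, and no source used here states which part of the transcript each probe reads.

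Lalba encodes alpha-lactalbumin, the whey protein that turns a galactosyltransferase into lactose synthase. Its ratio was 2.07, 3.14 and 4.64 at the lowest, median and highest duct array, against 0.06, 1.39 and 2.63 in terminal end buds. Lalba had the widest spread of the members in both structures, with an SD of 1.04 in ducts and 0.95 in terminal end buds (n = 6 each), and the groups overlapped. Terminal end bud replicates 4 and 5 were at 0.06 and 0.19, close to stroma. The difference was 2.09 (95% interval 1.03 to 3.15, limma adjusted p = 0.00811), or 4.25-fold. Over stroma the mean was 3.28 in ducts (adjusted p = 9.97e-06) and 1.20 in terminal end buds (adjusted p = 0.0118).

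Lalba in terminal end buds was also read on subsets of the array numbers in the titles. On array numbers up to 193, 2 arrays per structure, the mean in terminal end buds was 2.02 (adjusted p = 0.0234), and from 196 on it was 0.78 (adjusted p = 0.12). The 2 subsets overlapped, since replicate 6 at 1.52 was above replicate 2 at 1.41, and the difference between them was not tested. Without terminal end bud replicate 1 it was 0.91 (adjusted p = 0.0508), and over 24 alternatives the adjusted p ran between 0.00522 and 0.249. Ducts minus terminal end buds was 1.59 on array numbers up to 193 alone (adjusted p = 0.254) and 2.34 from 196 on (adjusted p = 0.0147).

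Btn1a1 encodes butyrophilin, a membrane protein needed for the release of milk fat globules. In ducts it read 2.23, 2.61 and 3.09 at the lowest, median and highest array, against 0.61, 0.73 and 0.77 in terminal end buds. The 6 terminal end bud arrays lay close together, with an SD of 0.06 against 0.32 in ducts, and the groups did not overlap. The difference was 1.96 (95% interval 1.69 to 2.23, limma adjusted p = 7.69e-07), or 3.9-fold, with the smallest adjusted p among the members. Over stroma the mean was 2.68 in ducts and 0.71 in terminal end buds.

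Muc15 encodes a membrane mucin of the milk fat globule. Its ratio was 3.66, 4.24 and 4.65 at the lowest, median and highest duct array, against 1.19, 2.12 and 3.26 in terminal end buds. The groups did not overlap. Among terminal end buds, replicates 1, 2 and 3 read 1.19, 1.6 and 1.33, while replicates 4, 5 and 6 read 3.26, 2.65 and 3.01, so 3 arrays were low and 3 high. The difference was 2.02 (95% interval 1.27 to 2.76, limma adjusted p = 0.00103), or 4.04-fold. Over stroma the mean was 4.19 in ducts and 2.17 in terminal end buds, and 1.39 in terminal end buds on array numbers up to 193 alone.

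Wfdc18, also called Expi, encodes a small secreted protein with the disulfide core of whey acidic protein. It was the exception among the members. Its ratio in ducts was 2.92, 3.99 and 4.73 at the lowest, median and highest array, against 3.82, 5.29 and 6.26 in terminal end buds. The groups overlapped through terminal end bud replicate 1 at 3.82, and the other 5 terminal end bud arrays were above every duct array. Its mean of 5.27 in terminal end buds ranked 4 among all probes, against rank 12 for its mean of 3.87 in ducts. Ducts minus terminal end buds was -1.40 (95% interval -2.24 to -0.57, limma adjusted p = 0.0201), a 2.65-fold higher ratio in terminal end buds. With arrays scaled to a common median absolute deviation it was -0.54 (adjusted p = 0.414), and with quantile normalization -1.31 (adjusted p = 0.00426). On array numbers up to 193 alone it was -0.97 (adjusted p = 0.272). Its adjusted p ran between 0.00303 and 0.47 over 23 alternatives.

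**Figure D2:**
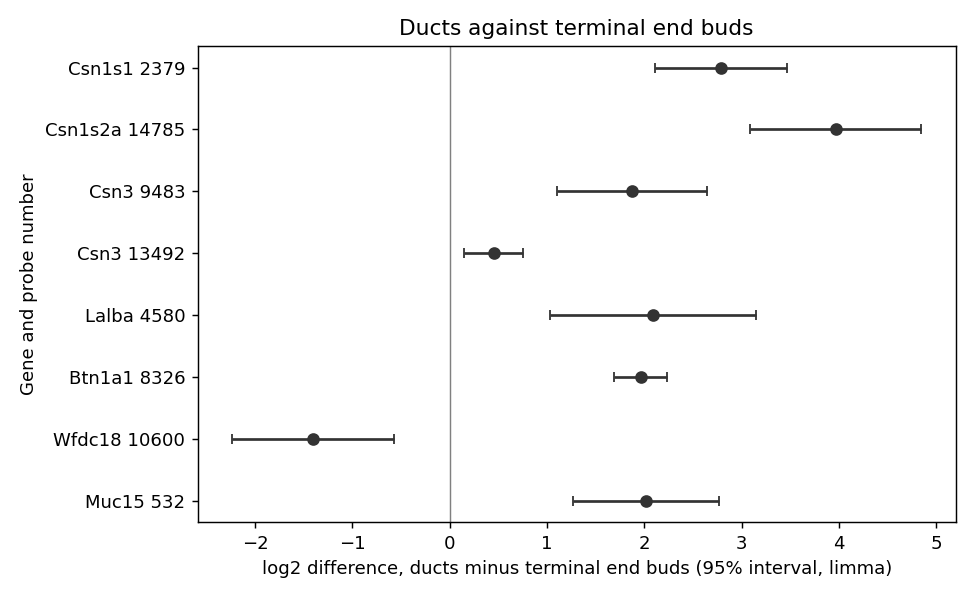
Difference in log2 ratio, ducts minus terminal end buds (horizontal axis), for each milk protein probe (rows), with the 95% interval of the limma fit over 12 arrays. Csn1s2a has the largest difference, at 3.96, and Wfdc18, at -1.40, is the only one below 0.

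The differences of the members were set against each other within arrays. For each of 28 pairs of probes, the gap between the probes on an array was compared between 6 duct and 6 terminal end bud arrays by a two-sided exact permutation test, adjusted over the pairs. Of the pairs 18 passed. Wfdc18 differed from each of the other 7 probes, with adjusted p between 0.00605 and 0.014. Csn1s2a moved further than Csn1s1 by 1.18 (adjusted p = 0.0162), than probe 9483 of Csn3 by 2.09 (adjusted p = 0.0378) and than Lalba by 1.88 (adjusted p = 0.00605). The remaining pairs among Csn1s1, probe 9483 of Csn3, Lalba, Btn1a1 and Muc15 did not pass, with gaps up to 0.91 and adjusted p of 0.0989 or more, which does not show that they moved alike.

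Luminal markers were lower in ducts than in terminal end buds for 3 of 6 genes, while 4 of 4 endothelial, 3 of 4 brown fat, 1 of 4 white fat and 1 of 4 fibroblast markers were higher in ducts. So were 2 of 4 skin and hair markers, whose mean over arrays was 0.55 to 1.05 in ducts and 0.06 to 0.39 in terminal end buds, and 1 of 5 basal markers. Of 3 blood cell markers 1 was lower in ducts, and of 3 skeletal muscle markers 0 passed (limma, 0 at an unadjusted p under 0.05). Among all probes 10.4% were higher and 8.32% lower in ducts. An alternative chosen after seeing the data took each array's ratios relative to the mean of its 6 luminal markers. It adds the same amount to the difference of every probe, so that larger values for the other members and a smaller one for Wfdc18 follow from the scale itself. On that scale Csn1s2a was higher in ducts by 4.68, Csn1s1 by 3.50, probe 9483 of Csn3 by 2.59 and probe 13492 by 1.17. Muc15 was higher by 2.73 and Btn1a1 by 2.68. For all of these the two-sided exact permutation p was 0.00216, the smallest that 6 and 6 arrays allow. Lalba was higher by 2.80 (exact p = 0.00649). Wfdc18 was at -0.69 (exact p = 0.0823). The part of these other markers in the differences between structures was not tested.

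**Figure D3:**
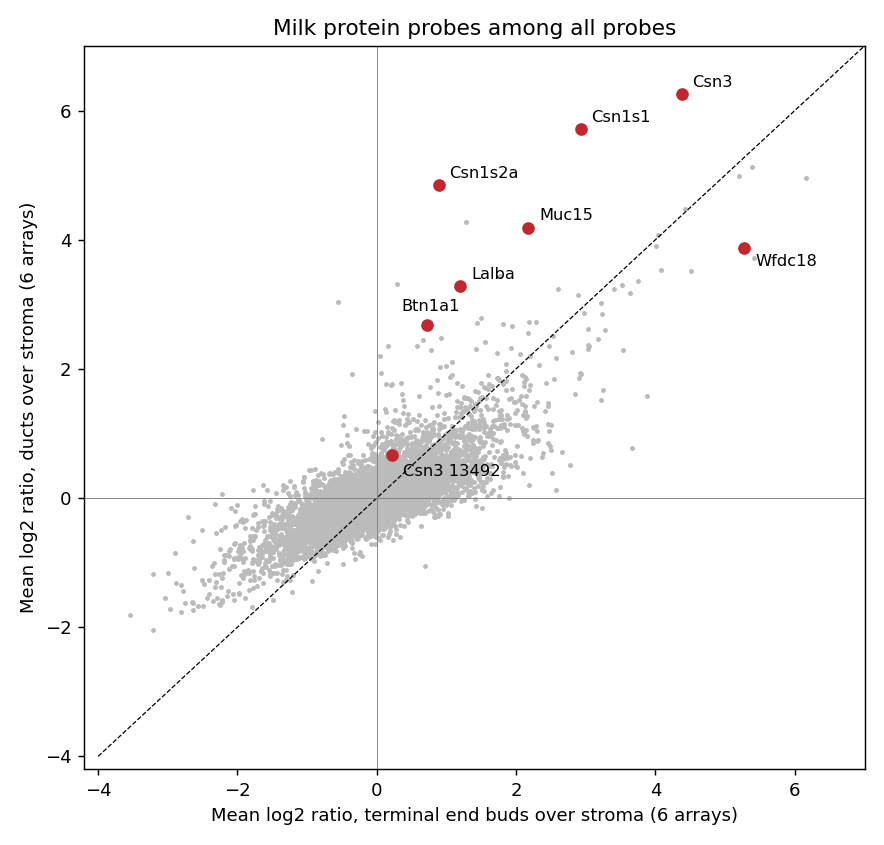
Mean log2 ratio over stroma in ducts (vertical axis) against that in terminal end buds (horizontal axis) for all 17589 probes (grey) and the 8 milk protein probes (red). The dashed line marks equal ratios. Of the 8 probes 7 lie above the line and Wfdc18 below it, and probe 13492 of Csn3 lies within the main cloud.

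A milk gene was the highest of all probes on every duct array, Csn3 by probe 9483 on 4 and Csn1s1 on 2. On all 6 terminal end bud arrays Krt8, a luminal keratin, was the highest. Csn1s1 ranked between 1 and 6 on single duct arrays and between 17 and 62 on terminal end bud arrays. Csn1s2a ranked between 2 and 14 in ducts and between 69 and 4264 in terminal end buds. Wfdc18 ranked between 7 and 29 in ducts and between 2 and 6 in terminal end buds. Probe 9483 of Csn3 ranked between 1 and 3 in ducts and between 4 and 19 in terminal end buds. For its probe 13492 the ranks were 282 to 3325 in ducts and 2918 to 7469 in terminal end buds. In ducts Lalba ranked 5 to 74, Btn1a1 21 to 61 and Muc15 9 to 14. In terminal end buds Lalba ranked 37 to 7847, Btn1a1 1073 to 1884 and Muc15 33 to 423.

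The order of the arrays differed between members. Duct replicate 1 had the highest Csn1s1, Csn1s2a and Lalba and the lowest Csn3 by probe 9483 of the duct arrays. Terminal end bud replicate 1 likewise had the highest Csn1s1, Csn1s2a and Lalba of its group and the lowest Csn3 by that probe, Wfdc18 and Muc15. Correlations were computed for the 28 pairs within each structure, 56 in all, over 6 arrays. The lowest p of Pearson's r was for Csn1s1 and Csn1s2a in ducts, with r = 0.905 (exact permutation p = 0.0125, adjusted p = 0.601) and rho = 0.829 (exact permutation p = 0.0583, adjusted p = 0.645). Without the 2 arrays farthest from the median, r was 0.713. The lowest p by rank was for Csn1s1 and Lalba in terminal end buds, with rho = 0.886 (exact permutation p = 0.0333, adjusted p = 0.645) and r = 0.84 (exact permutation p = 0.0431, adjusted p = 0.601), and r = 0.91 without the 2 farthest arrays. No pair passed the adjustment.

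**Figure D4:**
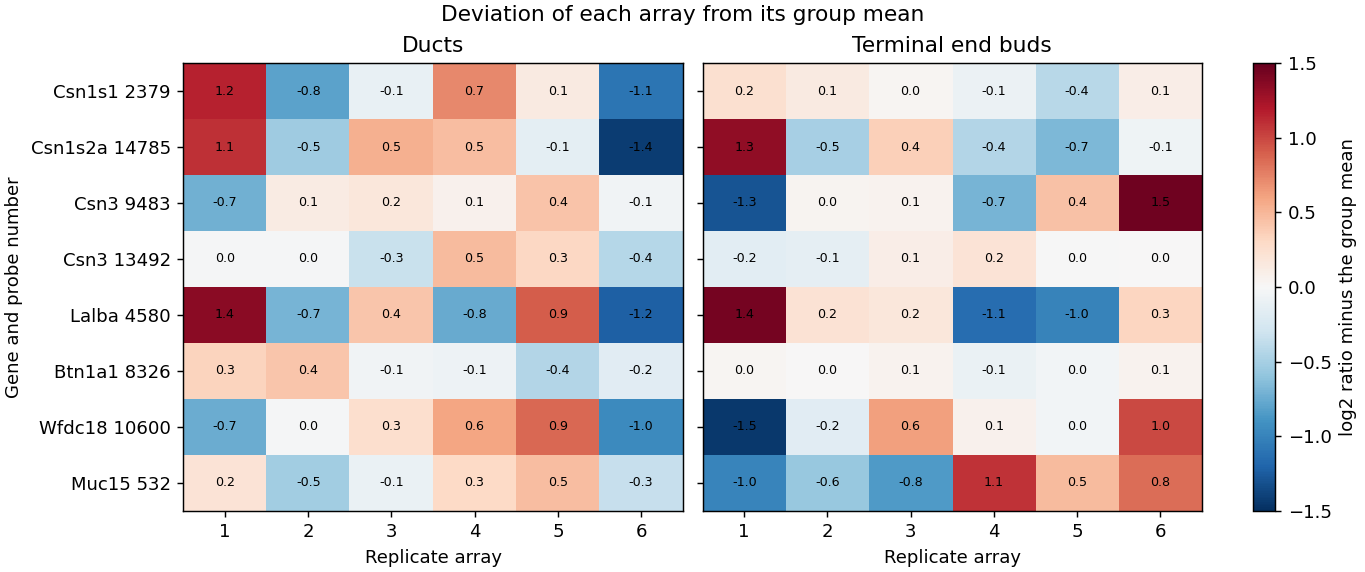
Deviation of each array from its group mean in log2 ratio (colour and printed number) for each milk protein probe (rows) on the replicate arrays of ducts (left) and terminal end buds (right). Replicate 1 of each structure is high for Csn1s2a and Lalba and low for Csn3 by probe 9483 and for Wfdc18, and terminal end buds 4 to 6 are high for Muc15.

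A list of other milk protein and milk fat globule genes had 18 measured members. Ducts exceeded stroma for 9 of them and fell below it for 1, and terminal end buds for 6 and 3. The shares of all probes were 16% and 12.2% in ducts, and 23.2% and 20.4% in terminal end buds. Between the structures 6 were higher in ducts and 0 lower (limma, 8 and 0 at an unadjusted p under 0.05), beside the 10.4% and 8.32% of all probes. The list's median difference was 0.27. Ltf, the iron-binding lactoferrin, was at 3.44 in ducts and 1.76 in terminal end buds (difference 1.68, SE 0.35, adjusted p = 0.00393). Mfge8, a milk fat globule protein that marks dying cells for uptake, was at 2.67 in ducts and 1.94 in terminal end buds (adjusted p = 0.00215).

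Trf, transferrin, was at 2.03 in ducts and 0.91 in terminal end buds (difference 1.13, adjusted p = 0.0399). Folr1, a folate receptor, was at 1.83 in ducts and 0.86 in terminal end buds (difference 0.97, adjusted p = 0.0087). Cd36, a fatty acid transporter also found in fat cells and vessels, was below stroma in both, at -0.73 in ducts and -1.96 in terminal end buds. Aqp5, a water channel, was at 2.06 in ducts and 2.33 in terminal end buds, a difference that did not pass (adjusted p = 0.627). Chosen after their values were seen, the whey gene Wap was at -0.03 in ducts and 0.26 in terminal end buds, and Csn1s2b, a further casein, at -0.17 in ducts and 0.03 in terminal end buds, and neither passed in any comparison. Wap spread between -1.605 and 0.813 over the duct arrays.

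Of 26 measured regulators of milk genes, 12 were higher and 1 lower than stroma in ducts, and 10 exceeded it and 7 fell below it in terminal end buds. Between the structures 7 were higher and 3 lower in ducts, with a median difference of 0.13. The shares of all probes were 16% higher and 12.2% lower in ducts, 23.2% and 20.4% in terminal end buds, and 10.4% and 8.32% between them, so the 3 lower regulators are near the share of all probes. Elf5, the transcription factor of alveolar fate, was at 2.73 in ducts and 2.18 in terminal end buds (difference 0.55, SE 0.33, adjusted p = 0.311). Gata3, a luminal factor, was at 3.37 in ducts and 3.75 in terminal end buds (adjusted p = 0.325). Growth hormone receptor, Ghr, was near stroma in ducts at -0.21 and low in terminal end buds at -2.04 (difference 1.83, adjusted p = 4.47e-06).

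Cav1, a caveolar protein known to restrain Jak2 and also abundant in fat cells and vessels, was at -0.16 in ducts and -1.43 in terminal end buds. Cyclin D1, Ccnd1, was lower in ducts, at 1.94 in ducts and 2.92 in terminal end buds (difference -0.98, adjusted p = 0.00128). Id2, an inhibitor of helix-loop-helix factors, was also lower in ducts, at 0.76 in ducts and 1.37 in terminal end buds (adjusted p = 0.0329). Chosen after their values were seen for their place in prolactin signalling, Jak2 was at 0.28 in ducts and -0.23 in terminal end buds (difference 0.51, adjusted p = 0.000872). Stat5a was at 0.34 in ducts and 0.26 in terminal end buds (adjusted p = 0.784). Of the same list, Stat5b (adjusted p = 0.0841), Cish (adjusted p = 0.68), Socs2 (adjusted p = 0.578) and Socs3 (adjusted p = 0.336) did not pass between the structures. Socs1 was lower in ducts, at 0.11 in ducts and 0.63 in terminal end buds (adjusted p = 0.00736). Nr3c1, the glucocorticoid receptor, also chosen after its values were seen, was at -0.31 in ducts and -1.18 in terminal end buds (difference 0.87, adjusted p = 0.00115). Nr3c1 and Ghr had negative means in both structures, as did the 4 endothelial markers. The medians of those markers were -0.45 in ducts and -1.44 in terminal end buds. The part of vessels in the values of Nr3c1 and Ghr was not tested. The prolactin receptor was not analysed here.

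Markers of luminal subtypes were read next. Of all probes 16% were higher than stroma in ducts and 23.2% in terminal end buds, and 18.7% passed between the structures. Of 5 luminal progenitor genes, 4 were higher than stroma in each structure, and 0 passed between them (limma, 0 higher and 1 lower at an unadjusted p under 0.05). Among them Kit was at 1.37 in ducts and 1.66 in terminal end buds, Ehf at 1.33 in ducts and 1.13 in terminal end buds, and Cd14 at 0.81 in ducts and 0.80 in terminal end buds. Of 5 hormone-sensing genes, 4 were higher than stroma in each structure. Between the structures only Tph1, an enzyme of serotonin synthesis, passed, at 2.48 in ducts and 0.92 in terminal end buds (difference 1.56, adjusted p = 0.000975). Cited1 was at 2.62 in ducts and 3.03 in terminal end buds, Foxa1 at 2.27 in ducts and 2.81 in terminal end buds, and Pgr, the progesterone receptor, at 0.79 in ducts and 0.66 in terminal end buds.

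The 3 casein genes lie in 1 cluster on chromosome 5. Of 15 other measured genes of that neighbourhood, 1 was higher than stroma in ducts, Utp3 at 0.34, and 1 in terminal end buds, Odam at 0.48, and none was lower. Of all probes 16% were higher and 12.2% lower than stroma in ducts, and 23.2% and 20.4% in terminal end buds. Between the structures 0 passed (limma, 0 higher and 1 lower at an unadjusted p under 0.05), and their differences lay between -0.38 and 0.20. Csn1s2b, which follows Csn1s2a in the RefSeq gene order, was among them. Csn2, the beta-casein gene between Csn1s1 and Csn1s2a, was not analysed here. Counting 5 protein-coding genes on each side of every member, 27 of 55 neighbours were measured. Of these 1 was higher in ducts than in terminal end buds and 2 were lower, beside 10.4% and 8.32% of all probes.

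**Figure D5:**
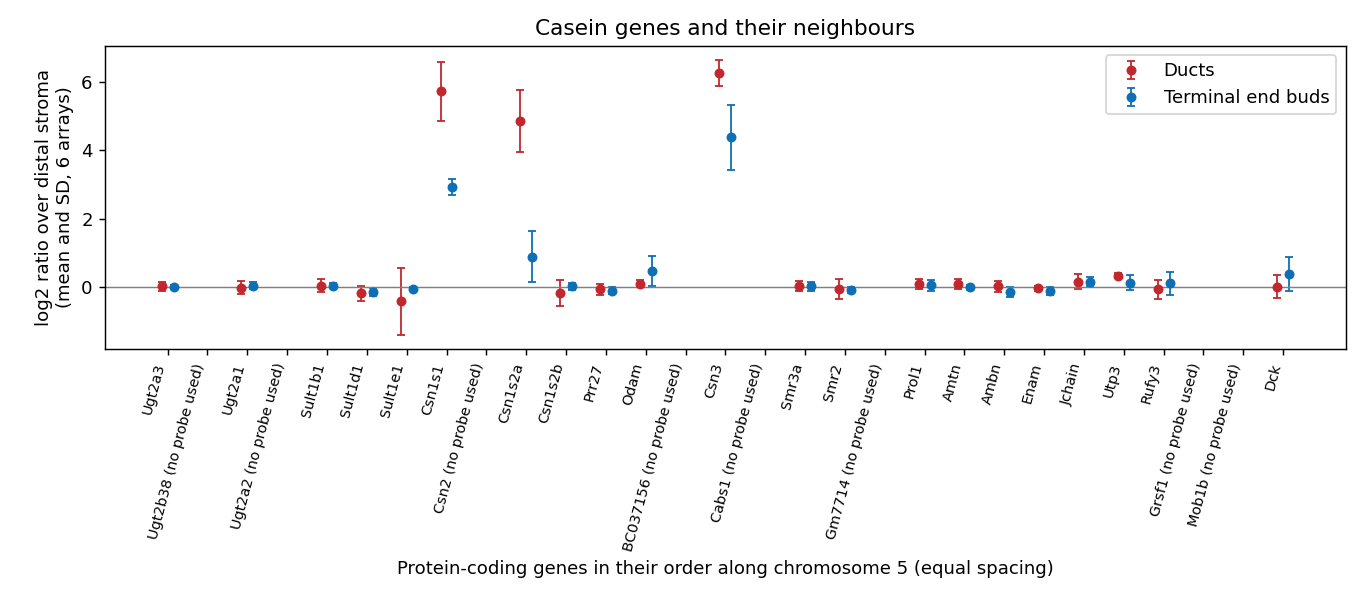
Mean log2 ratio over stroma with the SD over 6 arrays (vertical axis) in ducts (red, left) and terminal end buds (blue, right) for protein-coding genes in their order along chromosome 5 (horizontal axis, equal spacing). Csn1s1, Csn1s2a and Csn3 by probe 9483 stand above their measured neighbours, whose means lie between -0.42 and 0.48. Probe 13492 of Csn3, with means of 0.67 in ducts and 0.22 in terminal end buds, is not drawn.

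Of 10 measured relatives of the members by protein family, 5 were higher than stroma in ducts and 4 in terminal end buds, and between the structures 1 was higher and 1 lower in ducts. Of all probes 16% were higher than stroma in ducts and 23.2% in terminal end buds. Between the structures 10.4% were higher and 8.32% lower in ducts, so the counts of relatives between them are near the shares of all probes. Slpi, a secreted protease inhibitor with the same kind of disulfide core as Wfdc18, was at 2.46 in ducts and 3.17 in terminal end buds (adjusted p = 0.154). Wfdc2 was at 1.27 in ducts and 2.16 in terminal end buds (adjusted p = 0.245). Wfdc1 was higher in ducts, at 0.22 in ducts and -0.15 in terminal end buds (adjusted p = 0.0287). The mucin Muc4 was lower in ducts, at 0.08 in ducts and 0.85 in terminal end buds (adjusted p = 0.043), and Muc1 did not pass, at 0.69 in ducts and 0.30 in terminal end buds.

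The genes most like each member were sought among 14041 named probes with values on all 12 arrays, by Pearson's r of the log ratios. The arrays fall into 2 structures, so a high r mostly reflects a difference between them. Csn1s1 and Csn1s2a were each other's closest gene, with r = 0.97. Next to Csn1s1 came Ubr3 and Lpar6 (r = 0.962 and 0.955), and next to Csn1s2a came Rb1 and Akap12 (r = 0.964 and 0.963). Fndc3a was closest to Csn3 by probe 9483 (r = 0.931), Zhx3 to Lalba (r = 0.926), Ggh to Btn1a1 (r = 0.991), Tubb3 to Wfdc18 (r = 0.915) and Specc1l to Muc15 (r = 0.959). Apod, a lipid-binding secreted protein, was among the 3 closest to Btn1a1 (r = 0.985), at 3.03 in ducts and -0.56 in terminal end buds. With each group's mean removed, no member was among the 3 genes closest to another. Aspm, a spindle gene, was then closest to Muc15 (r = 0.925) and Ppp6r3 to Btn1a1 (r = 0.943). Each r here is the highest of many over only 12 arrays, and none was tested.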

How the data were processed

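The authors deposited a table of log ratios, taken here as log2 of Cy5 epithelium over Cy3 distal stroma from the dyes in the labels. No source used here states the scanner, the background correction or the normalization. Array medians lay between 0.01 and 0.023, and values were used as deposited. The table held 17589 probes, of which 129 lacked 1 value. The platform annotation named a single gene for 14136 probes, several for 13 and none for 3440. Named probes outside the members were read from the probe with most values, then the first in the table.

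limma 3.58.1 in R 4.3.3 (lmFit, eBayes) fitted 2 group means over 12 arrays. Each mean was tested against 0 and against the other, two-sided, with Benjamini-Hochberg adjustment across the whole table and a threshold of 0.05. A probe needed values on 4 arrays per group. The fit was tested on simulated data. Gaps between pairs of probes, correlations and the scale relative to luminal markers used exact permutation tests. These also served as an alternative for single probes. Replicate numbers only name arrays. Alternatives were centring, quantile and scale normalization, other filters, variance models and weights, array numbers as blocks, terms or subsets, a minimum size, the mean of a gene's probes, and each array left out.

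The members and gene lists were chosen with earlier results of these data known. Named genes were all member probes, up to 6 called genes per list with the largest difference, and the genes most like a member. Promoters are from RefSeq, GRCm38.p6, and all 7 members matched RefSeq symbols.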

Additional observations from a re-analysis of the deposited data

Results flagged for a closer look

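The ratio over stroma differed between the structures for all 8 probes by the limma test of the difference, where 18.7% of all probes were called. Over 23 alternatives the call was lost in 10 for probe 13492 of Csn3, in 3 for Wfdc18, in 2 for Lalba and in 1 for probe 9483 of Csn3. Ducts minus terminal end buds was 2.78 for Csn1s1 (every array of ducts above those of terminal end buds), 3.96 for Csn1s2a, 1.87 for Csn3 by probe 9483 and 0.45 by probe 13492, 2.09 for Lalba, 1.96 for Btn1a1, 2.02 for Muc15 and -1.40 for Wfdc18. No array lay apart from the others of its group by Dixon's criterion in the 16 groups of 6 values checked.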

How the results depend on the processing

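Of 624 values of single probes under an alternative, 592 kept their direction and their side of the threshold, 29 lost the call, 3 gained it and 0 turned round. Many of these could not turn round, because the minimum size, variance models, blocks and exact tests keep the estimate of the main fit. So do the mean of a gene's probes where the gene has a single probe, and a left-out array of the other structure. The counts therefore say little about direction. Exact tests were read by an unadjusted p under 0.05, and the main fit by an adjusted p. For a structure against stroma, an exact test passes for any probe with all 6 arrays on the same side of 0. Against stroma in ducts, 8 probes were called without any 1 of the 12 arrays, though only the 6 duct arrays enter the duct mean. For either structure against stroma, leaving out an array of the other changes only the spread behind the p-value. In terminal end buds the count was 5 to 7 without an array, and between the structures 7 to 8. With a minimum size of 0.5 (limma treat) 4 probes were called in terminal end buds and 4 between the structures. In terminal end buds Csn1s2a (adjusted p = 0.662), Lalba (adjusted p = 0.249) and Btn1a1 (adjusted p = 0.129) were lost by it. Between the structures the losses included both probes of Csn3, with probe 9483 at an adjusted p of 0.0575. The share of all probes called at that size was not counted. Arrays scaled to a common median absolute deviation left 5 calls in terminal end buds, where Csn1s2a (adjusted p = 0.153) and Lalba (adjusted p = 0.0773) were lost. That scaling moved the difference of Csn3 by probe 9483 to 2.90. With the mean of its 2 probes Csn3 was at 3.46 in ducts and 2.30 in terminal end buds. Neighbouring array numbers as a block left 8, 7 and 8 calls in ducts, in terminal end buds and between them. The labels do not say that neighbouring arrays share animals. The number of arrays limits the precision.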
